A study of Mus musculus with 2 samples.

Results

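The 39 genes described here encode ligands, receptors and intracellular effectors of the Wnt pathway, and were taken from a list of 16 Wnt ligands, 12 receptors (the Frizzled genes Fzd1 to Fzd10 with the co-receptors Lrp5 and Lrp6) and 11 effectors (Dvl1, Dvl2, Dvl3, Axin1, Axin2, Apc, Gsk3b, Ctnnb1, Tcf7l1, Tcf7l2 and Lef1), out of 21951 coding genes of the mouse annotation. An m6A site was given to a member when it lay inside the gene's GENCODE M21 interval on the gene's strand. That gave 514 sites, of 219409 listed in either library. The study crossed the distant mouse strains C57BL/6J (C57) and PWK/PhJ (PWK) to measure allele-specific m6A in early postnatal brain. Both libraries used here were GLORI libraries of poly(A)+ RNA, 1 from the cerebellum and 1 from the cerebrum, both labelled female, P0 and of the F1r cross (C57 mother, PWK father). Every cell of an F1r mouse carries 1 C57 and 1 PWK genome, and no inbred or untreated library was used. With 1 library per tissue there was no replicate error to test against, so differences between cerebellum and cerebrum are differences between these 2 libraries and carry no p-value.

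Wnt ligands are secreted, lipid-modified proteins that bind Frizzled receptors and the co-receptors Lrp5 and Lrp6 at the cell surface. Without a ligand, a complex of Axin, Apc and Gsk3b marks β-catenin for degradation; with a ligand, Dishevelled proteins disable that complex and β-catenin enters the nucleus, where it works with the TCF/LEF DNA-binding factors. In the developing brain the pathway patterns the cerebral cortex and hippocampus, keeps progenitors dividing and shapes axons, synapses and blood vessels. m6A, the methylation of adenosine at its N6 position, is laid down mostly in the motif DRACH (D stands for any base but C, R for a purine and H for any base but G), and is densest in long internal exons, around stop codons and in 3′ UTRs. In GLORI, glyoxal and nitrite deaminate unmethylated adenosine, which is then read as G, while m6A is still read as A.

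The sequences below show, for each class, the DRACH site nearest to the stop codon among those found in both libraries, for up to 4 genes with the most such shared sites. Apc (69 shared sites) and Fzd8 (3) also ranked within the first 4 of their class but were left out of the sequences, and Axin1 (3) and Fzd2 (1) took their places. Each is the genomic strand of the transcript in GRCm38 (mm10), written 5′ to 3′ over 25 bases, with the 5 bases of the motif in capitals and the methylated adenosine in the middle of it. Among the ligands, the Wnt5a window was chr14:28522965-28522989 (+ strand), 37 nt into the 3′ UTR. The Wnt7b window was chr15:85536914-85536938 (- strand), 463 nt into the 3′ UTR, and the Wnt4 window was chr4:137296818-137296842 (+ strand), 51 nt into the 3′ UTR.
Wnt5a: cccactcccaGGACCcacttattta
Wnt7b: ccctatttgaGGACAcccttccctc
Wnt4: ggaaggccaaTAACTtaaacagtct
Among the receptors, the Fzd1 window was chr5:4755632-4755656 (- strand) with the site 8 nt past the stop codon. The Fzd2 window was chr11:102606603-102606627 (+ strand), 171 nt past the stop codon. The Fzd3 window was chr14:65202741-65202765 (- strand), in the coding sequence of exon 7 of 7, at -34 nt from the end of the stop codon. The Lrp6 window was chr6:134450784-134450808 (- strand), in the coding sequence of exon 23 of 23, at -10 nt.
Fzd1: tctgaaacccAGACTcttaccttac
Fzd2: tttttaaaaaGAACTctgcccaaca
Fzd3: gcaccagcatGAACCgtgttattga
Lrp6: ccccctgcacGGACTcctcctgagg
Among the effectors, the Axin2 window was chr11:108949617-108949641 (+ strand), 234 nt into the 3′ UTR. The Tcf7l2 window was chr19:55931703-55931727 (+ strand), in the coding sequence of exon 14 of 14, at -142 nt from the end of the stop codon of the longest isoform. The Axin1 window was chr17:26188030-26188054 (+ strand), in the coding sequence of exon 6 of 11. The Gsk3b window was chr16:38090418-38090442 (+ strand), in the 5′ UTR of exon 1 of 11, since the shared 3′ UTR sites of that gene began 4617 nt past the stop codon.
Axin2: agaaaagcctGAACTatttattcaa
Tcf7l2: atggggctctGGACCtgccacctgc
Axin1: gcaccatcatAGACAtgtccaccac
Gsk3b: tcttgcgggaGAACTtaatgctgca

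The lists held 79355 sites for the cerebellum and 188295 for the cerebrum, of which 62.1% and 46.7% lay in DRACH. They give positions only, after the authors' minimum for methylation rate and read count, so the level and depth behind a site are unknown: a site absent from a list can be unmethylated, not transcribed or too thinly read, and these cannot be told apart. For its allele-specific results the study kept only GLORI sites inside peaks of m6A-seq, an antibody pull-down of m6A. That filter was not applied here, so the sites below, in DRACH or outside it, are GLORI calls alone. The 10 genes used as cerebrum markers had 210 sites in cerebrum and 42 in cerebellum, with Emx1, Tbr1, Dlx1, Dlx2 and Dlx5 listed in cerebrum alone (3, 25, 35, 12 and 9 sites). The 11 taken as cerebellum markers had 33 sites in cerebrum and 64 in cerebellum, with En1 and En2 listed in cerebellum alone (6 and 9 sites). Barhl1 and Lhx1 each had 12 in cerebellum and 1 in cerebrum, whereas Zic1 (19 and 22), Calb1 (2 and 5) and Barhl2 (4 and 4) were not higher in cerebellum, and Pax2, Atoh1, Pcp2 and Gabra6 had none in either library. Labelled female, the lists held 83 and 80 sites in Xist, but also 14 and 30 sites on chromosome Y. The cerebrum list was deposited under a name that also holds the cerebellum's abbreviation, and its tissue is taken from its label. Of 4 meninges markers, 2 were listed in cerebellum and 4 in cerebrum (7 and 21 sites). Of 4 endothelium markers, 2 were listed in each library (7 and 21 sites). Of 4 microglia markers, 2 were listed in cerebellum and 3 in cerebrum (5 and 13 sites). Of 3 markers of erythroid cells, 0 and 1 were listed (0 sites and 1 site). Of 5 choroid plexus markers, Otx2 had 13 sites in cerebellum and 3 in cerebrum, Ttr had 0 and 4, and the others had none. The part of these cell types in the results below was not tested.

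Of the 39 genes, 21 carried at least 1 site in cerebellum and 30 in cerebrum. Over all coding genes the shares were 41.2% and 57.4%. A DRACH site was present in 19 members in cerebellum and in 22 in cerebrum, against 35.0% and 45.2% of coding genes. The classes differed: 4 of 16 ligands, 8 of 12 receptors and 9 of 11 effectors had a site in cerebellum, and 7, 12 and 11 had one in cerebrum. Every member with a site in cerebellum also had one in cerebrum, the library with the longer list. This overlap was not set against all coding genes, so it cannot be called a trait of the members. Together they held 242 sites in cerebellum and 443 in cerebrum, with 171 at the same position in both. In whole tissue, fewer cells that express a gene and less of its RNA per cell cannot be told apart as reasons for a missing site.

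**Figure D1:**
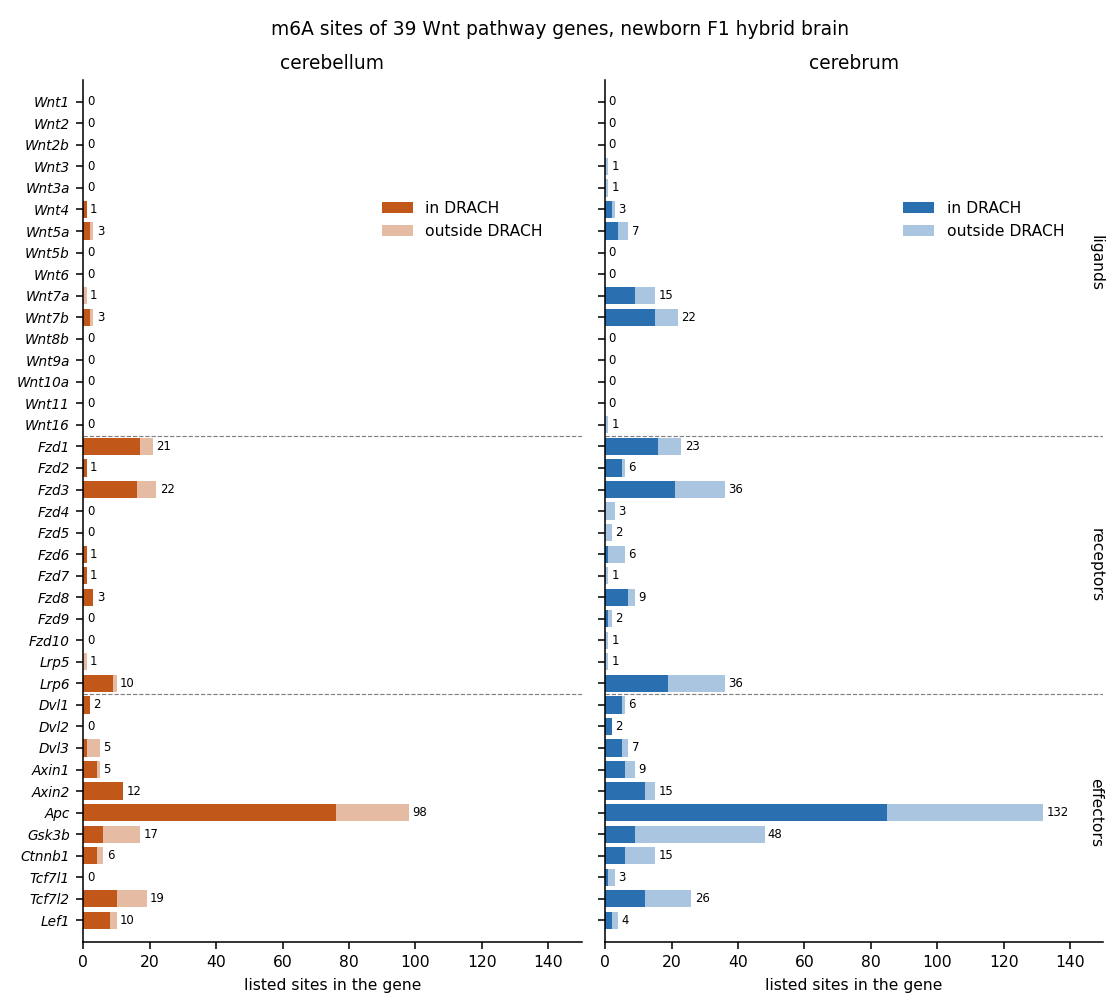
Listed m6A sites in each of the 39 Wnt genes in the cerebellum library (left) and the cerebrum library (right), with sites in DRACH in the full colour and others in the pale colour, and the total printed at each bar. Apc (98 and 132 sites) stands out in both libraries, and 9 ligands have no site in either.

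Sites in DRACH were shared between the libraries more often than sites outside it. DRACH sites made up 72.7% of member sites in cerebellum (176 of 242; 95% Wilson interval 66.8 to 78.0) and 55.3% in cerebrum (245 of 443; 50.6 to 59.9). The same shares over all coding genes, counted per gene and site, were 63.9% and 48.6%. Of the 176 cerebellum DRACH sites, 150 (85.2%) were found at the same base in cerebrum, whereas 21 of 66 cerebellum sites outside DRACH (31.8%) were. All coding genes gave 82.0% and 27.1%. Starting from the longer cerebrum list, 150 of 245 DRACH sites (61.2%) and 21 of 198 sites outside DRACH (10.6%) were found in cerebellum. Over all coding genes these shares were 45.9% and 8.08%. The intervals cover counting error only and treat neighbouring sites as independent.

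Among the 271 member DRACH sites in either library, AGACT (42 sites), GAACT (36) and GGACT (30) were the commonest 5-mers. Setting sites against the DRACH adenosines present gives the share that was listed. In the longest coding isoforms of members with a site, 22.7% of AGACT (interval 17.2 to 29.5), 21.7% of GAACT and 15.1% of GGACT (10.7 to 21.0) were listed in either library. The same 3 shares over all coding genes with a site were 15.9%, 17.2% and 19.8%, so the order of AGACT and GGACT was the opposite one in the members, and Apc alone supplied 16 of the 40 listed AGACT adenosines. Without Apc, 15.5% of AGACT, 17.1% of GAACT and 13.0% of GGACT were listed. None of 162 TGACC and 69 TAACC adenosines of the members was listed, 5-mers that were also seldom listed over all coding genes with a site (1.75% and 0.566%). Of the 243 sites outside DRACH, GGATT and GTACT were the commonest 5-mers with 9 sites each.

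Introns held 104 member sites, 24 in cerebellum and 81 in cerebrum, and 1 of them was found in both. They were 9.92% of the member sites in cerebellum and 18.3% in cerebrum, against 21.8% and 29.6% for all coding genes, and 9 of the 104 lay in DRACH. Apc, Gsk3b and Tcf7l2 held 83 of them. The shared count and the DRACH count were not set against the intronic sites of all coding genes, so neither can be called a trait of the members.

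Ligands had the fewest sites. Wnt1, Wnt2, Wnt2b, Wnt5b, Wnt6, Wnt8b, Wnt9a, Wnt10a and Wnt11 had 0 sites in both libraries. Wnt3, Wnt3a and Wnt16 had 1 site each in cerebrum, none in DRACH, and none in cerebellum; the one in Wnt3a was intronic. Wnt4 had 1 site in cerebellum and 3 in cerebrum. Wnt5a, known for signalling that does not pass through β-catenin, had 3 in cerebellum and 7 in cerebrum, and its 4 DRACH sites all lay in the 3′ UTR, 37, 161, 1115 and 2243 nt past the stop codon. The first and second of these were found in both libraries and the others in cerebrum alone.

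The closely related ligands Wnt7a and Wnt7b, which act on brain blood vessels and on axons and synapses, carried most ligand sites and nearly all of them in cerebrum. Wnt7a (chr6:91363981-91411363, - strand) had 1 site in cerebellum, outside DRACH, and 15 in cerebrum, 9 of them in DRACH. Wnt7b (chr15:85535437-85582473, - strand) had 3 in cerebellum and 22 in cerebrum, with 2 and 15 in DRACH. All 24 DRACH sites of the pair lay in the last exon, exon 4 of 4 in each gene. In Wnt7b 14 of 15 were in the 3′ UTR, 212 to 1021 nt past the stop codon, and in Wnt7a 7 of 9, 243 to 1700 nt past it. No DRACH site of either gene lay within 200 nt of the stop codon. The nearest were just outside that window, at -208 nt in Wnt7a and 212 nt in Wnt7b from its end. Both proteins are 78.5% identical over 349 aligned residues, but of the 3 coding DRACH sites of the pair (2 in Wnt7a, 1 in Wnt7b) none was listed at the aligned base of the other gene, and a DRACH motif stood there in 1 case. Of the DRACH adenosines in each longest isoform, 17.0% were listed in Wnt7a (9 of 53) and 25.4% in Wnt7b (15 of 59). Of 12147 coding genes with a site and at least 20 such adenosines, 615 had a share at least as high as Wnt7b.

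All 12 receptors were listed in cerebrum, 7 of them with a site in DRACH. Fzd4, Fzd5, Fzd9 and Fzd10 had 0 sites in cerebellum and 3, 2, 2 and 1 in cerebrum. Among them only Fzd9 had a site in DRACH, 1 in cerebrum. Fzd2 and Fzd6 each had 1 in cerebellum and 6 in cerebrum, Fzd7 had 1 in each, and Fzd8 had 3 and 9. Fzd1, Fzd3 and Lrp6 held 106 of the 139 receptor sites, and the other 9 receptors had at most 9 sites each.

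Fzd1, a single-exon gene (chr5:4753839-4758035, - strand), had 21 sites in cerebellum and 23 in cerebrum, of which 17 and 16 were in DRACH and 12 of these were shared. It was the only receptor apart from Fzd7 with more DRACH sites in cerebellum than in cerebrum. Its DRACH sites were spread from -1609 nt to 1648 nt relative to the end of the stop codon, 7 in the coding sequence and 14 in the 3′ UTR. Of its 59 DRACH adenosines 21 were listed in either library, 35.6% (interval 24.6 to 48.3), the highest share of any member; 172 of the 12147 genes reached it. Within the 3′ UTR the share was 43.8% (14 of 32), and 4 of 4 AGACT adenosines were listed.

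Fzd3, a receptor needed for axon guidance and fibre tracts in the brain, had 22 sites in cerebellum and 36 in cerebrum, with 16 and 21 in DRACH and 14 of those shared. Its longest annotated coding isoform has a 3′ UTR of 10270 nt that holds 200 of its 242 DRACH adenosines. Only 3 of the 200 were listed (1.50%, interval 0.511 to 4.32), none beyond 1329 nt. Whether Fzd3 RNA in these libraries reaches that far was not tested. In its coding sequence 15 of 34 were listed (44.1%; 28.9 to 60.5), and in its 5′ UTR 5 of 8. Exon 2 of 7, 520 nt long, held 8 DRACH sites, 5 of them in the 5′ UTR, and exon 4, 1018 nt long, another 8.

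Lrp6, the co-receptor phosphorylated when a ligand binds, had 10 sites in cerebellum and 36 in cerebrum, while its paralog Lrp5 had 1 in each, none in DRACH. All 9 cerebellum DRACH sites of Lrp6 were among its 19 in cerebrum. They lay in 6 of its 23 exons, with 4 in exon 2 (394 nt) and 9 in exon 23 (4605 nt), the last of them 691 nt past the stop codon. The proteins are 69.4% identical over 1597 residues. Of the 13 coding Lrp6 sites that could be aligned, 10 fell on a base of Lrp5 that is also in DRACH, and none of these was listed. Whether Lrp5 was unmethylated or too thinly read there cannot be told apart.

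**Figure D2:**
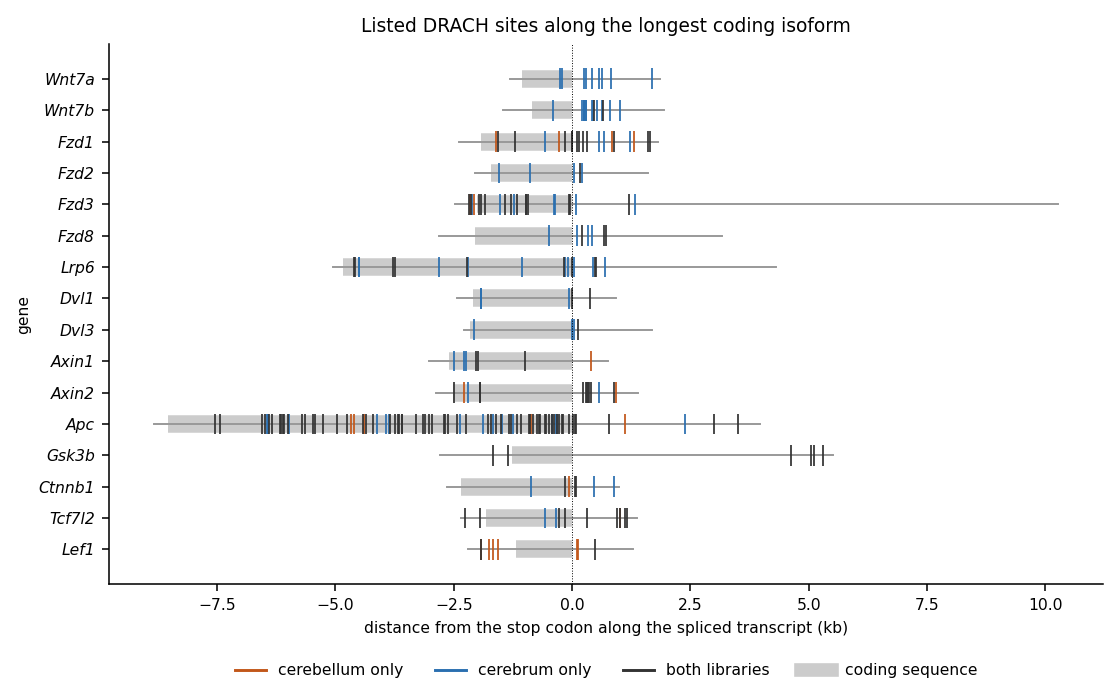
DRACH sites of the 16 members with at least 5 of them, by distance in kb from the end of the stop codon along the spliced transcript (negative values are upstream); thin lines are UTRs, thick bars the coding sequence of the longest isoform, and tick colours the library or libraries. Apc sites fill the coding sequence, Fzd3 sites stop early in a long 3′ UTR, Gsk3b sites lie at both ends of the transcript, and most Lef1 ticks are found in cerebellum alone.

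Effectors held 323 of the 514 sites, and all 11 were listed in cerebrum. Dvl1, Dvl2 and Dvl3, which pass the signal from the receptor to the Axin complex, had 2, 0 and 5 sites in cerebellum and 6, 2 and 7 in cerebrum. Ctnnb1, which encodes β-catenin, had 6 and 15, and Tcf7l1, which mainly represses Wnt targets, had 0 and 3. The last exon held 6 of the 7 Ctnnb1 DRACH sites, from -151 nt to 881 nt relative to the end of the stop codon. Dvl1 carried a shared site at -10 nt from the end of the stop codon, the same distance as the Lrp6 site printed above. A site at that distance in Dvl3 was found in cerebrum alone and is coding only in an isoform that is not the principal one.

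Apc, the scaffold of the β-catenin destruction complex, had 98 sites in cerebellum and 132 in cerebrum, 30.5% of all member sites. Of its 92 DRACH sites 76 were in cerebellum, 85 in cerebrum and 69 in both. Only 44 of 10231 coding genes with a DRACH site had as many, a rank by count that takes no account of transcript length. Of the 276 DRACH adenosines in its longest isoform, 87 were listed in either library (31.5%). That share was reached by 292 of the 12147 coding genes with a site and at least 20 such adenosines. Exon 16 of 16, 10548 nt long, held 85 of the 92 DRACH sites, 77 in the coding sequence and 8 in the 3′ UTR. Over the coding sequence 38.2% of DRACH adenosines were listed (79 of 207; interval 31.8 to 44.9), and over the 3′ UTR 11.9% (8 of 67; 6.18 to 21.8). In 1 kb steps along the last exon, 14 of 24, 7 of 27, 13 of 22, 8 of 30, 8 of 19, 14 of 21 and 16 of 26 were listed up to the step that holds the stop codon. In the next 4 steps the counts were 2 of 20, 1 of 12, 1 of 16 and 1 of 12. The density was thus high over the whole coding part of the exon and dropped within the step after the stop codon. Of its AGACT adenosines 16 of 21 were listed (76.2%; 54.9 to 89.4) and of its GAACT adenosines 9 of 12.

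**Figure D3:**
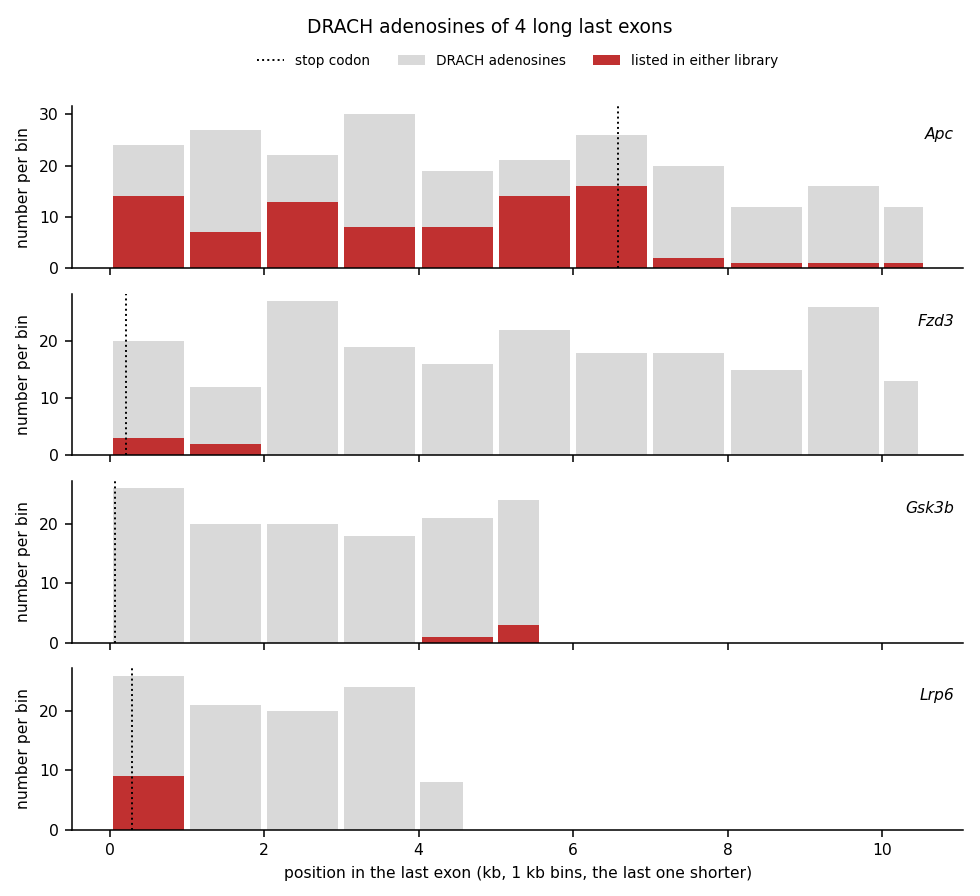
DRACH adenosines (grey) and those listed in either library (red) in 1 kb bins along the last exons of Apc, Fzd3, Gsk3b and Lrp6, with the stop codon dotted. In Apc the listed adenosines lie mostly before the stop codon, in Fzd3 and Lrp6 within the first 2 bins, and in Gsk3b only in the last 2.

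Axin2, which limits the pathway and is itself switched on by it, had 12 sites in cerebellum and 15 in cerebrum, and Axin1, its ubiquitous relative, had 5 and 9. All 14 Axin2 DRACH sites lay in exon 2 (5 sites, coding) or exon 11 (9 sites, 3′ UTR, 234 to 938 nt past the stop codon), with 12 in each library and 10 shared. Axin1 had 7 DRACH sites, 5 of them likewise in exon 2. The 2 proteins are 47.8% identical over 805 aligned residues, and at 2 of their aligned codons the same adenosine of the codon was listed in both genes.

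The same held at 3 pairs of Frizzled codons. The 5-base motif was identical in both genes in 4 of these 5 pairs. Those 4 are printed, with the motif in capitals, to show how much of the surroundings the paralogs share. Most coding sites that aligned to a paralog had no such match. Of 7 Fzd1 sites aligned to Fzd2, 4 stood on a base that is in DRACH there and 1 was listed. Of 15 Fzd3 sites aligned to Fzd6, these counts were 6 and 1. No match was found between the Wnt7, Dvl, Lrp5 and Lrp6, or TCF/LEF paralogs. For Axin1 codon 121 (chr17:26143033-26143057, + strand) and Axin2 codon 109 (chr11:108923601-108923625, + strand), both sites were found in cerebrum alone. For Axin1 codon 210 (chr17:26143300-26143324, + strand) and Axin2 codon 194 (chr11:108923856-108923880, + strand), all were found in both libraries.
Axin1 codon 121: ctgacctgctGGACTtctggtttgc
Axin2 codon 109: tggatacgctGGACTtctggtttgc
Axin1 codon 210: ttcttaagtcTGACAtttatttgga
Axin2 codon 194: tcttgacttcTGACAtttacctgga
Fzd1 codon 121 (chr5:4757207-4757231, - strand) was listed in both libraries and Fzd2 codon 54 (chr11:102604880-102604904, + strand) in cerebrum alone.
Fzd1 codon 121: cgctgtgcacGGACAtcgcgtacaa
Fzd2 codon 54: cgctgtgcacGGACAtcgcctacaa
Fzd3 codon 198 (chr14:65235712-65235736, - strand) and Fzd6 codon 194 (chr15:39031010-39031034, + strand) were listed in both libraries, and the latter is the only DRACH site of Fzd6.
Fzd3 codon 198: caggagagaaGAACTgtcatttgct
Fzd6 codon 194: taaaagtgatGAACTagactttgcc

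Gsk3b, the kinase that phosphorylates β-catenin, had 17 sites in cerebellum and 48 in cerebrum, but only 6 and 9 in DRACH. Introns held 35 of its 55 sites, 5 in cerebellum and 30 in cerebrum with none shared, and 3 of the 35 were in DRACH. Its exonic DRACH sites were the 6 found in both libraries: 2 in the 5′ UTR and 4 in the 3′ UTR, 4617, 5043, 5117 and 5314 nt past the stop codon of a 3′ UTR of 5515 nt. No DRACH adenosine of its coding sequence was listed (0 of 35), and none in the first 4 bins of its last exon. The 4 sites near the 3′ end are printed because all 4 motifs begin with GGAC: chr16:38245174-38245198, chr16:38245600-38245624, chr16:38245674-38245698 and chr16:38245871-38245895 (+ strand).
Gsk3b 4617 nt: tatatataaaGGACTgtgggttgta
Gsk3b 5043 nt: agaaaaatcaGGACTctccttctct
Gsk3b 5117 nt: gaaaccccctGGACTtaatgtagag
Gsk3b 5314 nt: tgaacaccatGGACAttgggtcagt

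The DNA-binding factors Tcf7l2 and Lef1 had 19 and 10 sites in cerebellum and 26 and 4 in cerebrum. Tcf7l2 DRACH sites (10 in cerebellum, 12 in cerebrum, 9 shared) lay in the 5′ UTR of exon 1 (2 sites), in the last exon (9 sites, from -343 nt to 1166 nt relative to the end of the stop codon) and elsewhere (2 sites). On its principal isoform the 3 coding sites of the last exon fall in the 3′ UTR and the 2 sites of exon 1 are not covered. In Lef1 all 8 DRACH sites were listed in cerebellum and 2 of them also in cerebrum. Of these 8, 5 lay in the 5′ UTR of exon 1 (1208 nt) and 3 in the 3′ UTR, 95, 130 and 481 nt past the stop codon. None of the 19 DRACH adenosines of its coding sequence was listed. The 5′ UTR sites are printed because that region carried most of the difference between the libraries: 1 of the 5 was found in cerebrum, the one at -1931 nt from the end of the stop codon. Their windows are chr3:131110722-131110746, chr3:131110738-131110762, chr3:131110892-131110916, chr3:131110973-131110997 and chr3:131111095-131111119 (+ strand).
Lef1 -1931 nt: tcatcatcacAAACTttattcttgg
Lef1 -1915 nt: tattcttggcAAACTtctctttttc
Lef1 -1761 nt: tgaaggaagtGGACTtttcggtatt
Lef1 -1680 nt: ctcttctcaaAAACAaaacaaaaca
Lef1 -1558 nt: gtcccctccgGAACCggtgtcctcg

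By region, the member DRACH sites on coding isoforms differed from those of all coding genes. The 3′ UTR held 33.1% of them in cerebellum (57 of 172; interval 26.5 to 40.5) and 37.6% in cerebrum (89 of 237; 31.6 to 43.9), against 57.3% and 55.8% over all coding genes. The coding sequence held 59.3% and 59.1%, against 39.9% and 41.3%. Apc accounted for most of this gap: without it, the 3′ UTR share was 50.0% in cerebellum and 52.9% in cerebrum. The classes were unlike each other in cerebrum, with the 3′ UTR share 90.0% in ligands (27 of 30), 41.4% in receptors (29 of 70) and 24.1% in effectors (33 of 137). Apc set the last of these, for without it the effector share was 47.3% (26 of 55; 34.7 to 60.2) and the order of receptors and effectors turned. Wnt7a and Wnt7b held 24 of the 30 ligand DRACH sites. The DRACH adenosines present, listed or not, had the same order of classes. Of those in members with a site, the 3′ UTR held 69.3% in ligands, 56.0% in receptors and 40.9% in effectors, Apc included. Within 200 nt of the stop codon lay 16.3% of member DRACH sites in cerebellum and 14.3% in cerebrum, against 21.9% and 22.0%, and without Apc 23.0% and 18.7%.

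Counting the DRACH adenosines that could have been listed, 9.25% of those in members with a site were listed in either library (260 of 2811; 8.23 to 10.4), against 7.87% in all coding genes with a site. Without Apc the direction turned: 6.82% were listed (173 of 2535; 5.91 to 7.87). For effectors the share was 14.4% (12.4 to 16.7), for receptors 6.20% and for ligands 6.02%, and the effectors other than Apc had 8.34% (65 of 779; 6.60 to 10.5). In the coding sequence of effectors 18.5% were listed (105 of 567), 79 of the 105 in Apc, and 7.22% without it. Leaving out Apc lowered the share for all members from 6.08% to 3.91% in cerebellum and from 8.40% to 6.07% in cerebrum, where all coding genes with a site had 4.22% and 7.19%. Listing varied with the distance from splice junctions, in the members and in other genes: adenosines over 100 nt from a junction were listed in 11.0% of cases (237 of 2163) and nearer ones in 3.55% (23 of 648; 2.38 to 5.27), against 11.4% and 1.83% in all coding genes with a site. Without Apc the members had 7.92% and 3.32%.

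**Figure D4:**
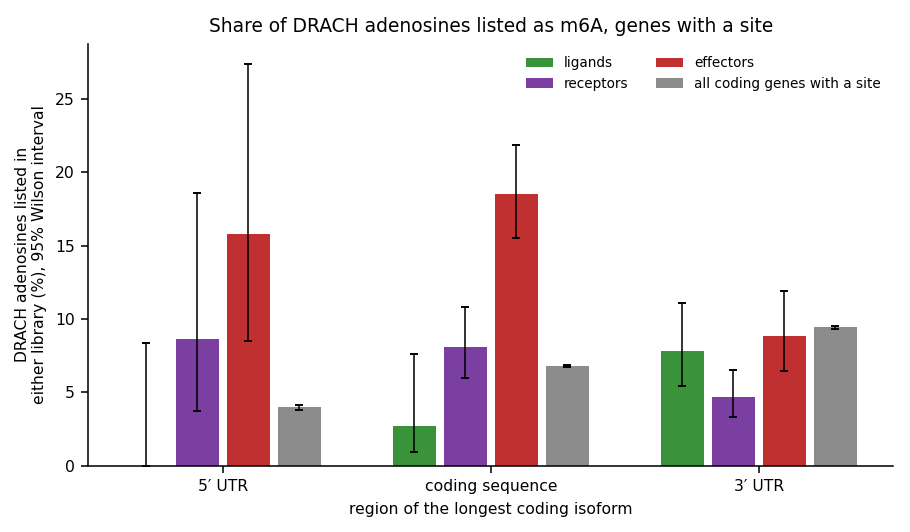
Percent of DRACH adenosines listed as m6A in either library, by region of the longest coding isoform, for ligands, receptors and effectors with a site and for all coding genes with a site; error bars are 95% Wilson intervals. Effectors reach 18.5% in the coding sequence (7.22% without Apc) and ligands 2.70%, and the ligands have no listed DRACH adenosine in the 5′ UTR.

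To compare the libraries gene by gene, the 16 members with at least 5 DRACH sites in either library were used. Of these, 7 had at least 2 times more in cerebrum (Wnt7a, Wnt7b, Fzd2, Fzd8, Lrp6, Dvl1 and Dvl3), and the share over all 5520 coding genes with as many sites was 46.3%, so this count was near the background. In the other direction the only member was Lef1, with 8 DRACH sites in cerebellum and 2 in cerebrum; 1.05% of coding genes met that rule, and 41 of the 5520 had a surplus of cerebellum sites as large. Since the cerebrum list is longer, the counts were also divided by the DRACH sites of all coding genes in each library, which are 1.79 times more numerous in cerebrum. Then Wnt7a, Wnt7b, Fzd2 and Dvl3 were left on the cerebrum side, with 19.2% of coding genes, and Lef1 on the cerebellum side, with 4.49%. Fzd1 (17 and 16), Axin2 (12 and 12) and Apc (76 and 85) had nearly equal counts. The median ratio of cerebrum to cerebellum was 1.50 over the 15 members with a cerebellum site and 1.75 over 5231 coding genes.

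**Figure D5:**
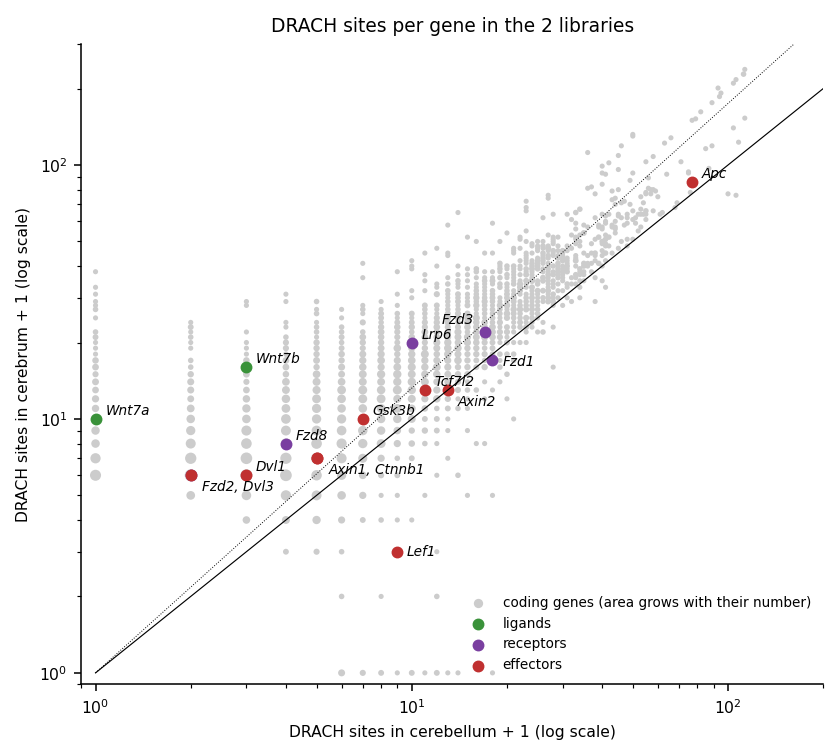
DRACH sites per gene plus 1 in cerebellum (x axis) and cerebrum (y axis), both on log scales, for coding genes with at least 5 in either library; the solid line marks equal counts and the dotted line a ratio of 2. Lef1 lies well below the solid line and Fzd1 (17 in cerebellum and 16 in cerebrum) just under it. Wnt7a and Wnt7b lie at the left, with few cerebellum sites.

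Another 60 genes of the pathway (secreted inhibitors, R-spondins, planar polarity genes, kinases and nuclear cofactors) were counted in the same way. Of these, 35 had a site in cerebellum and 44 in cerebrum (41.2% and 57.4% of all coding genes did), with 325 and 606 DRACH sites. Among the 26 with at least 5 DRACH sites, 14 had at least 2 times more in cerebrum and 0 in cerebellum, against 46.3% and 1.05% of coding genes. Apc2, the paralog of Apc, had 71 DRACH sites, 53 in cerebellum and 70 in cerebrum. The R-spondins Rspo2 and Rspo3, which amplify the signal at the receptor, had 4 and 6 DRACH sites in cerebrum and 0 in cerebellum.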

How the data were processed

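Poly(A)+ RNA from cerebellum and cerebrum of a female P0 F1r mouse was treated by GLORI, with deamination at a higher temperature than in the published protocol. GLORI-tools was run by the authors on mm10 and on a copy of mm10 carrying PWK bases at SNPs, united both sets and kept sites above a minimum methylation rate and read count. The deposited files list only chromosome, position and strand; the unit is a genomic position, so rates and depth are unknown and 0 columns were left without a sample.

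Positions were read in the GRCm38.p6 sequence with samtools 1.23.1. Genes were GENCODE M21, not the release the authors name. A site was placed on the longest coding isoform with both UTRs that covers it; the distance from the stop codon is counted along the spliced transcript from its last base. DRACH was read on genomic 5-mers of the site's strand in this reference, which is of the C57 strain, and no member site lacked a reference A. Motifs on the PWK allele, where a SNP may change the 5-mer, were not read. Sites in several genes count in each (4 member sites). "Both" means the same base and strand.

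Shares have 95% Wilson intervals. Paralogs were aligned over translated APPRIS principal isoforms (BLOSUM62, Biopython 1.88). No test was made. The steps were run in Python 3.11.15 with pandas 2.3.3 and scipy 1.17.1. Placing a position on a given isoform was tested on 5997 simulated sites in 1999 isoforms (1 drawn isoform without an in-frame stop codon was left out). The region was recovered for 5997 and the stop codon distance for 5991. The choice of gene and isoform, the calling of introns and the matching between libraries were not part of that test. Members and lists were chosen with earlier results of these data known. Every member is named; members with at least 10 exonic DRACH sites are described by position, and sequences follow a rule on shared sites (ties in list order; Apc and Fzd8 left out) and paralog codons. Of the cerebrum marker list 2 genes, and of the paralog codons 1 pair, are not reported here. The Lef1 and 3′ Gsk3b sequences, the last exon bins, the 5-mer shares and the shares of effectors without Apc were chosen after the values were seen.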

Additional observations from a re-analysis of the deposited data

Results flagged for a closer look

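On the opposite strand, 19 sites lay inside the Wnt5b interval (7 in cerebellum, 18 in cerebrum, 10 of the 19 in DRACH), although Wnt5b itself had none. All 19 lay in Fbxl14, an annotated gene on that strand, and none was counted for Wnt5b. The intervals of the other members held 2 opposite-strand sites, 1 each in Wnt2b and Dvl2.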

How the results depend on the processing

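Of 65 values recomputed under other settings, 13 of them chosen after seeing the data, 36 stayed within the interval of the reported share or within 1.5 times the reported count, and 29 did not. With exonic sites only, the DRACH share was 79.4% in cerebellum and 65.7% in cerebrum, and 78.0% of cerebellum sites were also in cerebrum (85.2% with DRACH sites only). With sites found in both libraries, the DRACH share was 87.7% and the share of DRACH sites over 100 nt from a junction 95.9% (cerebrum list 90.7%). Without Apc, the 3′ UTR share was 50.0% and 52.9%, the share within 200 nt of the stop codon 23.0% in cerebellum, and the listed share of DRACH adenosines 3.91% and 6.07% (6.82% in either library, 7.92% over 100 nt from a junction). For effectors without Apc, the 3′ UTR share was 55.3% and 47.3%, the listed share 8.34% and that of the coding sequence 7.22%. Within 400 nt of the stop codon lay 26.7% and 28.7%, and over 200 nt from a junction 84.3% and 80.2%. The number of members with more DRACH sites in cerebrum was 4 after dividing by library totals, 4 at a ratio of 3 or more, and 2 of 7 with at least 10 sites. Leaving out sites in other genes and using APPRIS isoforms moved no value past these limits, though 7 of 271 DRACH sites changed region (5 in Tcf7l2, 2 in Dvl3). No paired analysis was possible because each tissue has 1 library. Depth is unknown, so the longer cerebrum list cannot be told apart from deeper reading, and the intervals cover counting of sites only.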

Other observations

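Downstream of the members, within 5000 nt of the annotated end and on the same strand, 1 site each was listed for Fzd1 (2824 nt past the end, cerebellum) and Gsk3b (2005 nt, cerebrum), neither in DRACH. By place in the codon, the members' listed share of coding DRACH adenosines was 15.0% at the first base, 10.5% at the second and 14.7% at the third (intervals 11.6 to 19.1, 8.27 to 13.2 and 10.6 to 20.1), against 6.23%, 6.76% and 7.51% over all coding genes with a site. Without Apc the members had 8.45%, 6.63% and 6.37% (5.79 to 12.2, 4.78 to 9.12 and 3.50 to 11.3).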
